A study of Homo sapiens with 4 samples.

Results

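The dual specificity mitogen-activated protein kinase (MAPK) phosphatases studied here were the 10 genes DUSP1, DUSP2, DUSP4, DUSP5, DUSP6, DUSP7, DUSP8, DUSP10, DUSP14 and DUSP16, taken by gene symbol from the array annotation. The list was chosen by gene family with the log2 differences of the contrast described here already known. All 10 had a named probe set, out of 14884 genes with one, and all 10 were among the 12755 genes bright enough to be tested. The cells were MDA-MB-231Br, derived from the triple-negative breast cancer line MDA-MB-231 (the name used in the sample titles). All cells had received lentivirus and been selected with puromycin; 2 arrays carried the control hairpin (shControl) and 2 the hairpin against YTHDF3 (shYTHDF3), a cytoplasmic reader of N6-methyladenosine on RNA. The labels give neither the hairpin sequence nor a time after transduction, and leave unsaid whether replicate arrays stem from separate cultures; errors and p-values below therefore cover the spread between samples alone, and this can be technical. In such bulk RNA, fewer cells of a kind and less RNA per cell cannot be told apart.

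MAPK phosphatases remove phosphate from both the threonine and the tyrosine of the activation loop of ERK, JNK and p38 kinases and so switch these kinases off. Many are transcribed in response to the very kinases they inactivate, which makes their transcripts both a brake on the pathway and a readout of it. DUSP1, DUSP2, DUSP4 and DUSP5 encode inducible nuclear enzymes, DUSP6 and DUSP7 encode cytoplasmic enzymes selective for ERK, DUSP8, DUSP10 and DUSP16 encode enzymes that prefer JNK and p38, and DUSP14 encodes a small enzyme without the kinase-binding domain of the others. The comparison asked whether DUSP1, a gene induced by many stresses, moved with the ERK feedback genes DUSP4, DUSP5 and DUSP6 when YTHDF3 was targeted.

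Promoters are shown for 4 genes: the member that differed most between the groups (DUSP1), the ERK feedback gene that moved least (DUSP6), and a pair of JNK and p38 phosphatases (DUSP8 and DUSP10). Each is the 250 bases before the transcription start from RefSeq, build GRCh38.p14, on the minus strand and read 5′ to 3′. Capitals mark the cyclic AMP response element TGACGTCA, which is the same on both strands. RefSeq lists 2 starts for DUSP10, of which the upstream one is shown. The windows are chr5:172771196-172771445 for DUSP1, chr12:89352502-89352751 for DUSP6, chr11:1572272-1572521 for DUSP8 and chr1:221742090-221742339 for DUSP10.
DUSP1: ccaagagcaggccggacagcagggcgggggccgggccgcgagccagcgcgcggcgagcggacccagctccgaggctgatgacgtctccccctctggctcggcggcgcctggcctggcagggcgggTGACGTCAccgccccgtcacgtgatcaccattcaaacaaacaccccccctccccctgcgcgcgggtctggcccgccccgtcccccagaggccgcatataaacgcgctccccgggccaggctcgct
DUSP6: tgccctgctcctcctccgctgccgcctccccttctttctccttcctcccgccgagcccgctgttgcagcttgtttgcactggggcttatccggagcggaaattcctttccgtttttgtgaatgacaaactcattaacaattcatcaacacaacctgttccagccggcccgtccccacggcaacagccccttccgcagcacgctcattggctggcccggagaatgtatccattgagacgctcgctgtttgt
DUSP8: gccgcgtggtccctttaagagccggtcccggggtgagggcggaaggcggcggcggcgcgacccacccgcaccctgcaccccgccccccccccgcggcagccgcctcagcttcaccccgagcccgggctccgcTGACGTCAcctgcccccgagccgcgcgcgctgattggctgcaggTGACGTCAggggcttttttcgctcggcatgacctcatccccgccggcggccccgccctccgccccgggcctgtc
DUSP10: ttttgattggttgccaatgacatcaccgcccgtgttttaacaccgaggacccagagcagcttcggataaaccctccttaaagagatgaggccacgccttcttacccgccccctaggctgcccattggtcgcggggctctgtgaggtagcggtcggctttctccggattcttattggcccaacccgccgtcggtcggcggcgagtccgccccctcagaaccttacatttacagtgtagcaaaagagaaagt

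The RefSeq table held promoters for 8 of the 10 genes. The element TGACGTCA began 125 bases before the start of DUSP1 and 118 and 74 bases before that of DUSP8, and was found in no other of the 8. Among all 35116 promoter windows of this length 1.65% held it. The EGR element GCGNGGGCG, searched on both strands, was present in DUSP2, DUSP14 and DUSP16 and in 8.41% of all windows. The AP-1 element TGANTCA (6.57% of all windows) and the CArG box of serum response factor (1.16%) were in none of the 8. A match describes the letters in the window only.

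Values below are log2 expression as deposited, and differences are shYTHDF3 minus shControl on that scale. Because the genes were listed with this contrast known, their values are a description, and calls and intervals from the fit over all genes are read as such. A gene is said to have fallen or risen only where its Benjamini-Hochberg adjusted p from limma, over all tested genes, was under 0.05; this held for 96 genes (0.753%), of which 85 (0.666% of those tested) were lower and 11 (0.0862%) higher in the knockdown arrays. YTHDF3 had no named probe set and was not analysed here, so the knockdown labels have no check from the targeted gene. Correlations over the tested genes were 0.992 within each group and 0.986 to 0.987 between groups (Pearson). On a marker list for this line, the mesenchymal genes VIM, AXL and CD44 and the receptor gene EGFR lay well above the array medians. Their lowest values were 9.83, 11.08, 8.06 and 9.89, beside array medians of 3.20 to 3.22. The fifth measured gene of that marker list, the fibronectin gene FN1, also lay above them but fell, from 7.37 and 7.40 to 6.09 and 5.68 (-1.50); its part in the differences below was not tested. Of 9 measured luminal breast markers, 6 had a mean at or above the median over all probe sets. These were KRT18, EPCAM, KRT19, FOXA1, GATA3 and KRT8, with lowest values of 8.26, 6.63, 6.37, 4.65, 4.44 and 3.84 in that order. ERBB3 and the hormone receptors ESR1 and PGR had means below it. ESR1 and PGR lay below the array medians in every array, at 2.78 to 2.94 and 2.57 to 2.76.

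Of the 10 phosphatases, DUSP1 fell and the other 9 did not pass, so that 1 was called lower and 0 higher. Limma's unadjusted p was under 0.05 for 4 lower genes (8.48% of all tested genes) and 1 higher gene (6.24%). The arrays of the groups did not overlap for 8 of the 10, against 45.5% of all tested genes. Of these 8, 6 were lower (22.8% of all tested genes) and 2 higher (22.6%). The 6 include DUSP8 and DUSP6, whose nearest knockdown and control arrays differed by only -6e-04 and -0.038. The median difference over the 10 was -0.21, beside 0.004 over all tested genes.

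**Figure D1:**
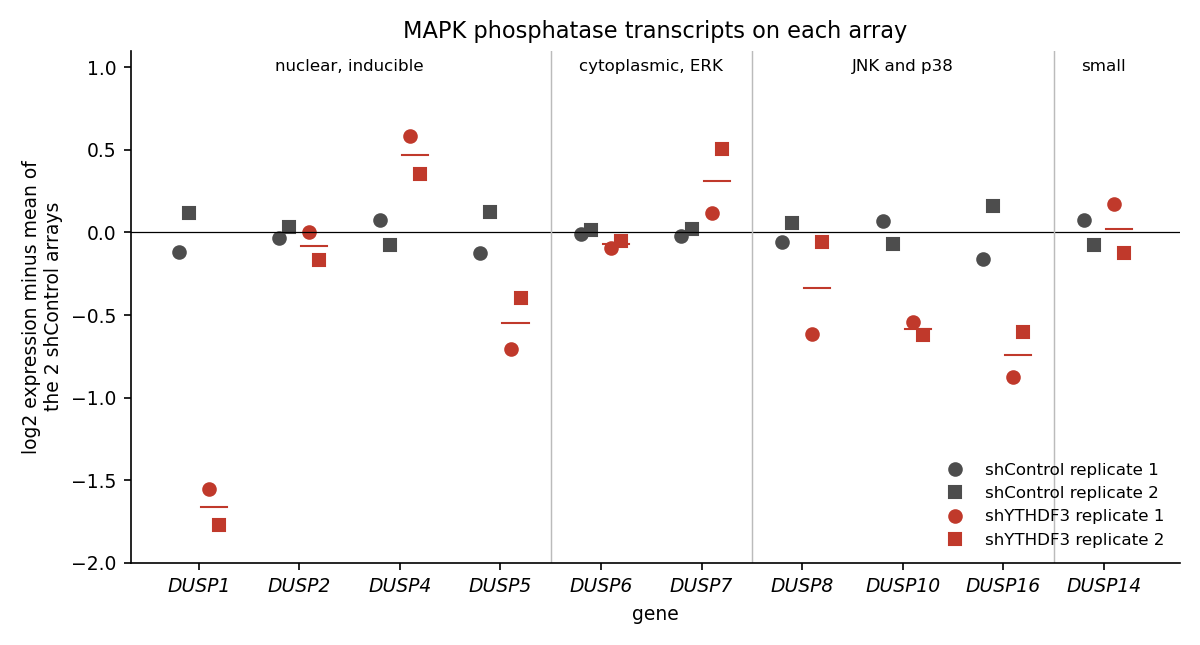
Log2 expression of each gene on each array, minus the mean of the 2 shControl arrays (vertical axis), by class of phosphatase; grey symbols are shControl, red shYTHDF3, circles replicate 1, squares replicate 2, and red lines the shYTHDF3 mean. DUSP1 lies at -1.56 and -1.77 on the knockdown arrays, DUSP6 within 0.10 of its control mean, and DUSP4 at 0.58 and 0.36.

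DUSP1 encodes MKP-1, the nuclear phosphatase that is made within minutes of stress or growth factor exposure and acts on p38 and JNK as well as ERK. Its transcript stood at 9.78 and 10.01 on the shControl arrays and at 8.34 and 8.12 on the shYTHDF3 arrays. Both knockdown arrays were far below both control arrays, and the gaps within the groups were 0.23 and 0.21. The means were 9.89 ± 0.16 and 8.23 ± 0.15 (SD, n = 2), a difference of -1.66 (SE 0.15, 95% interval -2.01 to -1.31). The knockdown level was thus 31.6% of the control level, or 3.16-fold lower (2.48 to 4.03). The 4 pairings of a knockdown with a control array gave differences from -1.88 to -1.44. DUSP1 had the 22nd lowest difference of all 12755 genes. It kept its direction but did not pass without shControl replicate 1 (-1.78) or without shControl replicate 2 (-1.55), where no gene of the whole table passed limma's adjusted threshold and 1375 and 1389 had an unadjusted p under 0.05; nor did it pass with a replicate block or with every probe set tested as its own row.

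DUSP2 encodes PAC-1, an inducible nuclear phosphatase known best from activated lymphocytes. Its values were 5.55 and 5.62 with the control hairpin and 5.58 and 5.42 with the hairpin against YTHDF3. The groups overlapped. The difference was -0.08 (95% interval -0.39 to 0.23).

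DUSP4 and DUSP5, both nuclear and both known as transcriptional targets of ERK, stood on opposite sides of zero. DUSP4, which encodes MKP-2, was at 7.04 and 6.90 on the control arrays and at 7.55 and 7.33 on the knockdown arrays. Both knockdown values were the higher ones, with a difference of 0.47 (SE 0.14, 95% interval 0.13 to 0.81) that did not pass. DUSP5, which encodes an ERK-specific phosphatase that also holds ERK in the nucleus, was at 7.82 and 8.06 on the control arrays and at 7.23 and 7.54 on the knockdown arrays. Both knockdown values were the lower ones here, with a difference of -0.55 (SE 0.16, 95% interval -0.93 to -0.17) that did not pass either. A second DUSP5 probe set, dimmer at 3.85 to 3.98 over the 4 arrays, differed by -0.05, and the mean of the probe sets gave -0.30.

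DUSP6 encodes MKP-3, the cytoplasmic phosphatase selective for ERK whose transcript is used widely as a readout of ERK activity. Its values were 9.18 and 9.21 in the control arrays and 9.10 and 9.15 in the knockdown arrays. The knockdown values were both the lower ones, but by little: the difference was -0.07 (95% interval -0.37 to 0.22). In folds that interval runs from 0.776 to 1.17 times the control level. DUSP7, which encodes the related cytoplasmic phosphatase MKP-X, was at 6.10 and 6.14 in the control arrays and at 6.24 and 6.63 in the knockdown arrays. The knockdown values were the higher ones and lay 0.39 apart, and the difference of 0.31 (95% interval -0.07 to 0.69) did not pass. Leaving out shYTHDF3 replicate 2 gave 0.12, and leaving out replicate 1 of that group gave 0.51.

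The 3 phosphatases that prefer JNK and p38 all had negative differences, none of which passed. DUSP16, which encodes MKP-7, a JNK phosphatase that shuttles out of the nucleus, was at 5.58 and 5.90 on the control arrays and at 4.86 and 5.14 on the knockdown arrays. The groups were separate, with gaps of 0.32 and 0.27 within them, and the difference was -0.74 (SE 0.17, 95% interval -1.13 to -0.35), or 59.9% of the control level. DUSP10, which encodes MKP-5, a phosphatase of p38 and JNK, was at 8.87 and 8.74 on the control arrays and at 8.26 and 8.18 on the knockdown arrays. The arrays of each group lay close together, with gaps of 0.14 and 0.08, and the difference was -0.58 (SE 0.13, 95% interval -0.89 to -0.27), or 66.8% of the control level. DUSP8, which encodes a phosphatase of JNK and p38 also called hVH5, was dim at 3.49 and 3.60 on the control arrays and 2.94 and 3.49 on the knockdown arrays. Its lower control value and its higher knockdown value were equal to 2 decimals, and near the array medians RMA compresses differences. The difference of -0.33 had a 95% interval of -0.79 to 0.12; the difference became -0.61 when shYTHDF3 replicate 2 was left out and -0.06 when replicate 1 of that group was.

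DUSP14, the small enzyme also called MKP-6, was at 7.48 and 7.33 in the control arrays and at 7.58 and 7.28 in the knockdown arrays. The knockdown values lay on either side of the control values, with a difference of 0.02 (95% interval -0.33 to 0.38).

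The fall of DUSP1 was not matched in the mean of the ERK feedback genes. Relative to the control mean, the average of DUSP4, DUSP5 and DUSP6 stood at -0.07 and -0.03 on the knockdown arrays, and at -0.02 and 0.02 on the control arrays. DUSP1 minus that average stood at -1.48 and -1.74 on the knockdown arrays, against -0.10 and 0.10 on the control arrays. The difference of -1.61 ran from -1.84 to -1.39 over the 4 pairings of arrays. The small average combines the opposite signs of DUSP4 and DUSP5. For DUSP8, DUSP10 and DUSP16 the average was -0.68 and -0.43 on the knockdown arrays, which put DUSP1 lower than this class by 0.88 and 1.34 on them. No p is given for these contrasts: an exact permutation of 2 arrays against 2 cannot reach 0.05, and the genes were chosen with results known.

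**Figure D2:**
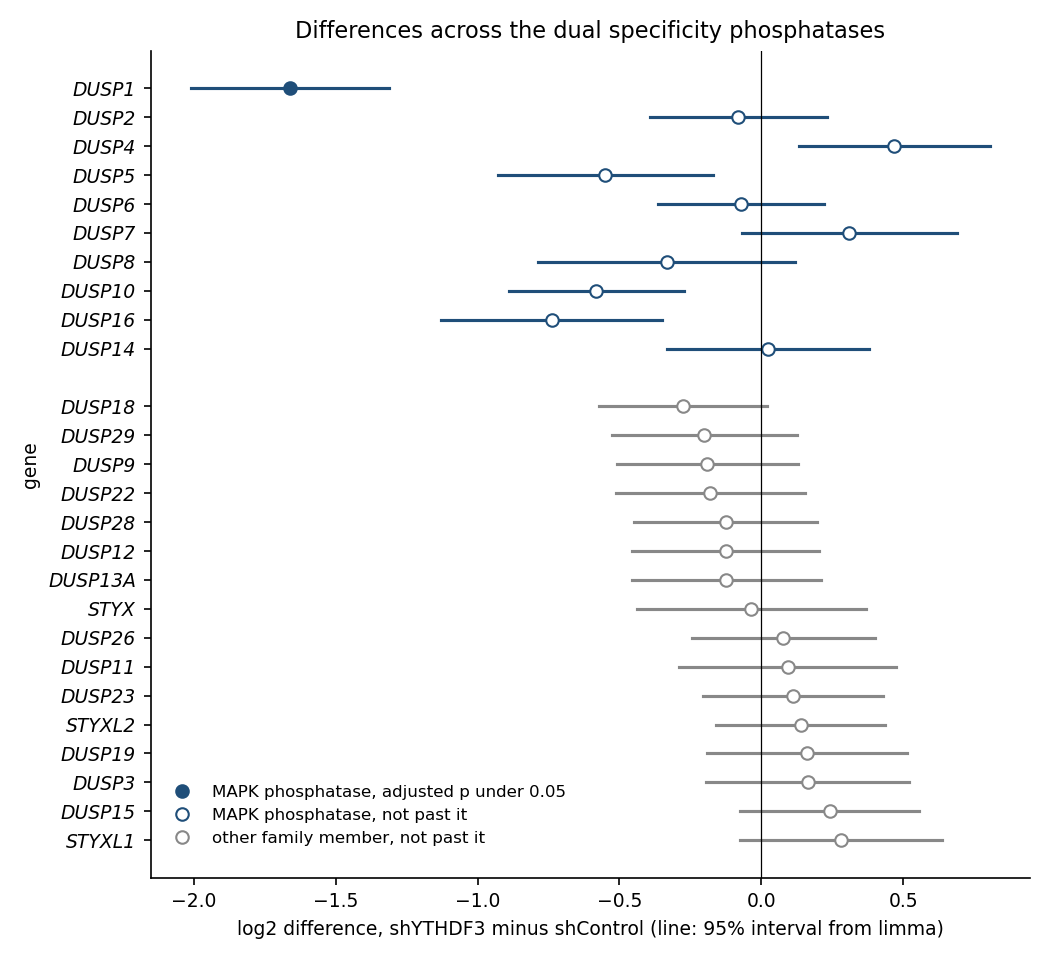
Log2 difference (horizontal axis) with its 95% interval from limma for the 10 MAPK phosphatases (blue) and the 16 other tested genes of the dual specificity phosphatase family (grey); filled points passed an adjusted p of 0.05. DUSP1 at -1.66 is the only filled point, and the grey points, several of them dim genes, lie between -0.28 and 0.28.

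The rest of the family is given beside the members. Several of these genes were dim, and near the array medians RMA compresses differences, while STYX, DUSP11 and DUSP12 were bright. The range of their differences is therefore no like-for-like measure for the members, most of which were brighter. Of 20 further family symbols 17 had a named probe set, and 16 were tested. None passed limma's test over all genes, 0 had an unadjusted p under 0.05, 8 had positive and 8 negative differences, and the median was 0.02. Among them were DUSP9, the third gene of the cytoplasmic class (-0.19), DUSP3 or VHR, a small enzyme that acts on ERK and JNK (0.16), and DUSP22, linked to JNK signalling (-0.18). The pseudophosphatases STYX, STYXL1 and STYXL2 were at -0.04, 0.28 and 0.14, and the RNA phosphatase DUSP11 at 0.09. DUSP12 was at -0.12, DUSP13A at -0.12, DUSP15 at 0.24, DUSP18 at -0.28, DUSP19 at 0.16, DUSP23 at 0.11, DUSP26 at 0.08, DUSP28 at -0.13 and DUSP29 at -0.20. DUSP21 was below the filter.

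**Figure D3:**
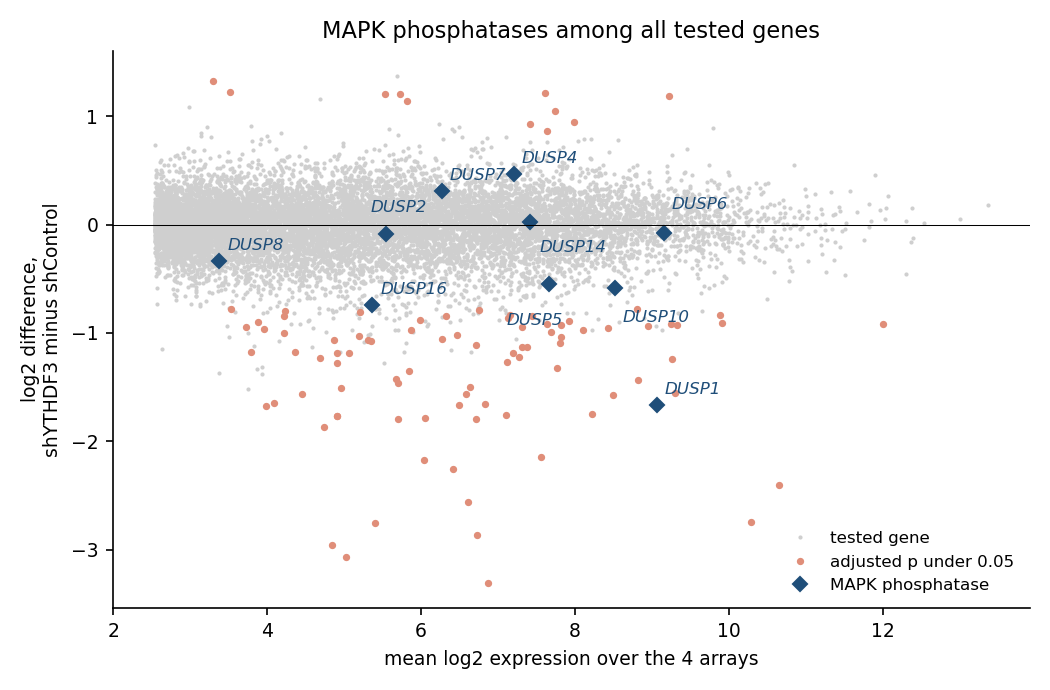
Mean log2 expression over the 4 arrays (horizontal axis) and log2 difference (vertical axis) of all 12755 tested genes; orange points passed an adjusted p of 0.05 and blue diamonds are the MAPK phosphatases. DUSP1 lies among the orange points at -1.66. Within the grey cloud, DUSP16 (-0.74), DUSP10 (-0.58) and DUSP5 (-0.55) lie in the lower part and DUSP4 (0.47) in the upper part.

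By rank among all tested genes, DUSP16 was the 191st, DUSP10 the 344th and DUSP5 the 412th lowest difference, and DUSP4 the 341st highest. The genes with array profiles most like that of DUSP1 were found by Euclidean distance between centred log2 values over the 4 arrays. With 2 arrays per group, such a distance mainly finds genes with a like group difference, and shared control was not tested. The nearest was AGR2, an endoplasmic reticulum protein disulfide isomerase, at a distance of 0.08, which went from 4.82 ± 0.11 to 3.15 ± 0.21 (SD, n = 2). STOX2, a winged-helix gene, followed at 0.18. The next were USP17L12 and USP17L9P, near-identical copies with identical values, at 0.19. SEL1L, a component of the machinery that degrades misfolded proteins of the endoplasmic reticulum, was at 0.22, with differences of -1.56 for SEL1L and -1.67 for AGR2. For DUSP6 the nearest were ATXN10, GPR149, TRIM40, TSPYL5 and SRSF6, at distances of 0.006 to 0.017. These were genes that barely differed between arrays.

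No tested kinase or adaptor of the cascades that these phosphatases act on passed. Of 14 tested ERK cascade genes 0 passed limma's test over all genes, and the median was -0.01. An unadjusted p under 0.05 was reached by 1 lower and 1 higher gene, beside 8.48% and 6.24% of all tested genes. The adaptor GRB2 was at 0.39, the exchange factor SOS2 at -0.45, the kinase MAP2K1 (MEK1) at 0.27 and the RAS inhibitor NF1 at -0.24. Of 18 tested JNK and p38 cascade genes 0 passed either, the median was 0.004, and an unadjusted p under 0.05 was reached by 1 lower and 3 higher genes. MAP3K3 (MEKK3) was at 0.54, MAPK11 (p38 beta) at 0.60, MAP3K11 (MLK3) at 0.64 and MAP2K4 (MKK4), which phosphorylates JNK, at -0.49. The kinases MAPK8 and MAPK14, which are JNK1 and p38 alpha, were not analysed here. The arrays measured transcripts only, so kinase activity was not tested.

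ERK target genes had differences of both signs, 10 negative and 6 positive. Of 16 tested, 1 fell, 0 rose and 15 did not pass limma's test, with a median of -0.08. Limma's unadjusted p was under 0.05 for 7 lower genes and 1 higher gene, against 8.48% and 6.24% of all tested genes. ERRFI1, which encodes the EGFR inhibitor MIG6, fell from 12.44 and 12.49 to 11.53 and 11.55, a difference of -0.92. The transcription factor gene MYC was at -0.63, the EGFR ligand gene EREG at -0.56 and the cyclin D1 gene CCND1 at 0.49, none of which passed. Named after their values were seen, the other lower genes at that unadjusted p were LIF (-0.42), the feedback inhibitor SPRY4 (-0.40), FOSL1 (-0.39) and HBEGF (-0.35). The feedback inhibitor SPRY2 and the ETS factors ETV4 and ETV5, likewise named after their values were seen, were at -0.02, 0.24 and -0.10.

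Of 17 tested immediate early transcription factor genes 1 fell, 0 rose and 16 did not pass limma's test, with a median of -0.30. At that unadjusted p 7 were lower and 1 higher, as for the ERK targets, against 8.48% and 6.24% of all tested genes. EGR1 fell from 7.58 and 7.50 to 4.98 and 5.59, a difference of -2.25, while a second, dimmer EGR1 probe set differed by -0.54. ATF3 was at -1.33 without passing, with knockdown values of 3.67 and 2.74. KLF6 and KLF4 were at -0.40 and -0.44. JUN and FOS, the subunits of AP-1, were at 0.33 and -0.38 and are named after their values were seen.

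Genes listed as outputs of JNK and p38 stress signalling had the lowest median, -1.87. Of 16 listed only 8 had a named probe set, and all 8 were tested. Among these 5 fell, 0 rose and 3 did not pass limma's test, where 0.666% of all tested genes fell. Limma's unadjusted p was under 0.05 for 7 lower and 0 higher genes, against 8.48% and 6.24% of all tested genes. The falls were HMOX1 (-3.30), DDIT3 (-3.07), HSPA1A (-2.75), HSPA1B (-2.40) and PTGS2 (-1.24), the last named after its value was seen. Several of these are known mainly for other control: HMOX1 for NRF2, DDIT3 for the ATF4 arm of the stress response, and the near-identical HSPA1A and HSPA1B for heat shock factor. Their falls were known when the list was drawn up, so the list is no independent evidence of a direction. Across the pathway lists 7 of 92 tested genes fell, and when either shControl array was left out none of them passed.

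Transcripts such as DUSP1 are known to be degraded through AU-rich elements. Factors that bind these elements or act in RNA decay were covered thinly. Of 4 tested none passed limma's test over all genes and 0 had an unadjusted p under 0.05. KHSRP was at 0.29, TIAL1 at 0.25, TIA1 at 0.10 and PARN at -0.07. ZFP36, which encodes tristetraprolin, had no named probe set. RNA stability was not measured.

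**Figure D4:**
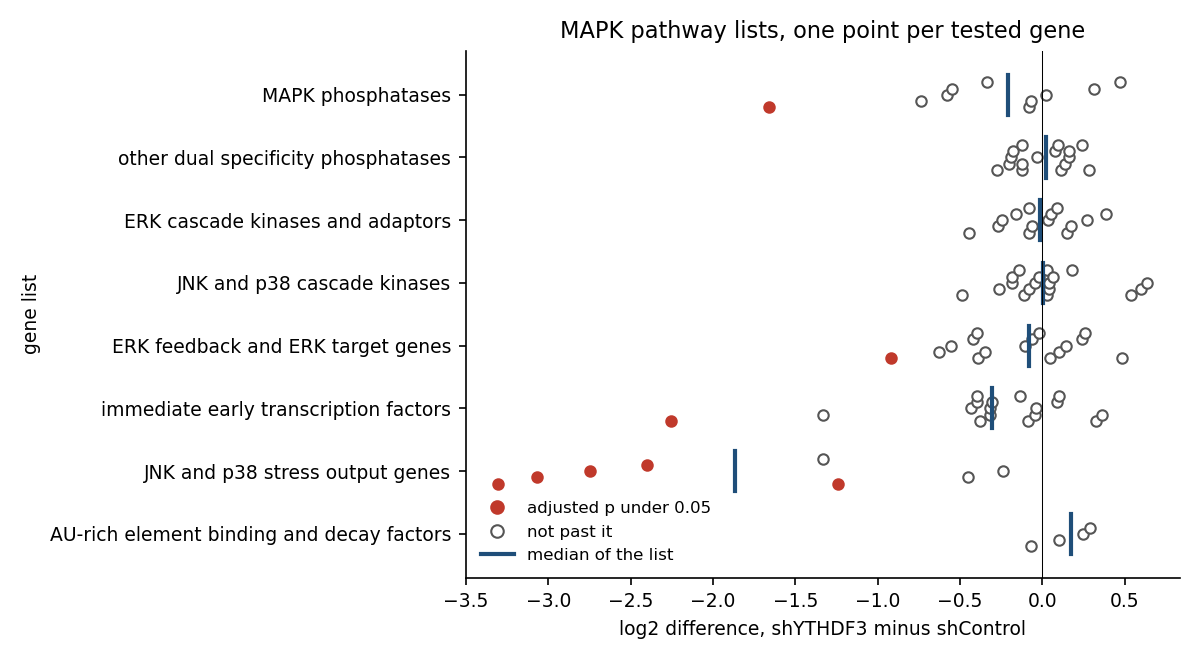
Log2 difference (horizontal axis) of each tested gene in the MAPK phosphatase set and 7 pathway lists; filled red points passed an adjusted p of 0.05 and blue bars are list medians. DUSP1 is the single red point among the phosphatases, 5 of 8 stress output genes are red, and the kinase lists centre on zero.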

How the data were processed

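Total RNA from 4 cell line samples was hybridised as biotin-labelled cRNA to Affymetrix arrays, per the labels' protocols. The deposited table gives log2 expression per probe set. The submitters' processing notes name RMA, with no version; settings and genome build are likewise not given in the sources used here. This method equalises arrays and compresses weak signals, so total RNA shifts are lost and folds of dim genes can be understated.

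Groups were taken from the sample titles. The platform annotation named 16098 of 53617 probe sets, each with 1 gene. Each gene was represented by its brightest probe set and tested if its mean was at least 2.54, the 30th percentile over the whole table. The test was that of limma 3.58.1, run in R 4.3.3 (two-sided, no covariates, 2 residual and 5.30 prior degrees of freedom, threshold 0.05 after Benjamini-Hochberg), a step checked on simulated data. The number of arrays limits the precision. No set test was run. The members and lists were chosen with earlier results of these data known. Of each pathway list the 4 tested genes of smallest unadjusted p are named, with every tested family member and the 5 nearest profiles. Of 12 other phosphatases listed (PTPN, PPM1 and PPP2 genes) 0 had a named probe set. Alternatives covered the filter, probe set rule, normalization, variance model, rows tested, threshold, a replicate block and leaving out each array. Promoter sequences are from RefSeq, GRCh38.p14.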

Additional observations from a re-analysis of the deposited data

How the results depend on the processing

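Across 14 alternatives the difference of DUSP1 kept its sign, from -1.78 to -1.55. It passed limma's adjusted threshold in 10 and did not in 4: the replicate block, every probe set as its own row, and leaving out either shControl array. The count of phosphatases called was 2 with a variance trend (DUSP1 and DUSP10), 0 with every probe set as its own row and 0 with the replicate block (5 at an unadjusted p under 0.05 in both), and 0 to 1 with 1 array left out. Without 1 control array the error comes from the knockdown arrays only, on the assumption that the remaining control varies as they do; 5 phosphatases without shControl replicate 1 and 3 without shControl replicate 2 then had an unadjusted p under 0.05. Genes called over the whole table numbered 167 with the filter at the 50th percentile, 375 with a variance trend, 250 at an adjusted p under 0.10, 19 with every probe set as its own row, 11 with the replicate block and 0 to 36 with 1 array left out (1375 and 1389 at an unadjusted p under 0.05 where the count was 0). Pathway list genes called numbered 11 with a variance trend, 4 with every probe set as its own row, 4 with the replicate block and 0 to 6 with 1 array left out (17 and 18 at an unadjusted p under 0.05 where the count was 0). Single probe sets mean more tests, and a left-out array or a block leaves fewer degrees of freedom. The counts also differed with which array was left out. The cause of these changes was not tested. Signs turned for DUSP14 without shControl replicate 2 (-0.05) and without shYTHDF3 replicate 1 (-0.12), and for DUSP2 without shYTHDF3 replicate 2 (0.001); over the 4 left-out arrays DUSP14 ran from -0.12 to 0.17 and DUSP2 from -0.16 to 0.001. The contrast of DUSP1 with DUSP4, DUSP5 and DUSP6 was -1.70 with the mean of a gene's probe sets, -1.63 with quantile normalization and -1.74 to -1.48 with 1 array left out; other settings leave it at -1.61 by construction. Nothing in the labels ties equal replicate numbers to a shared batch, so the numbers were not taken as pairs. Deviations of equally numbered arrays correlated at 0.043 over the tested genes.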
